A study of Drosophila melanogaster with 9 samples.

Results

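Larvae of 2 genotypes that express hairpin RNAs against CR32027, a long noncoding RNA of Drosophila melanogaster, were taken as one group and set against OreR, a wild-type strain without a hairpin, by RNA sequencing of the wing pouch. The hairpin libraries were CR32027-IR1 (VDRC stock 26860; 3 libraries) and CR32027-IR2 (VDRC stock 103512; 3 libraries), and the controls were 3 OreR libraries, which together are all 9 libraries of the study. Each genotype had the same weight in the pooled mean. Of 15682 genes in the deposited table, 7437 had a mean of at least 1 RPKM (reads scaled by gene length and by library depth) over the 9 libraries and were tested. In 568 of these all 6 hairpin libraries lay on one side of all 3 OreR libraries, and 276 of the 568 also passed the pooled test. Those 276 are called shared changes below, also where a hairpin genotype taken alone did not pass against OreR.

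All 3 genotypes had the same mothers, from a w1118 stock with Bx-GAL4 (MS1096) and UAS-dicer2 (Bloomington 25706), so the control larvae carried the driver and the extra Dicer-2 as well. Fathers were of the 2 hairpin stocks or of OreR. Male larvae were raised at 25 °C to the last, wandering instar, 30 wing discs were dissected per genotype, and the notum was cut off to leave the region where Bx-GAL4 is active. RNA was extracted in triplicate, per the labels, and whether the replicates stem from separate crosses is not stated; the p-values therefore reflect the spread between 3 extracts, possibly technical replicates. The father's stock changes together with the hairpin, so the hairpin and the rest of the stock's genome cannot be told apart. The libraries rested on 25070343 to 36512316 reads. Across genes, which are no independent replicates, log2 values correlated with Pearson's r of 0.976 to 0.982 between the hairpin genotypes and 0.977 to 0.988 between hairpin and OreR libraries. The summed level of wing pouch markers was 52.35 to 60.97 RPKM in hairpin libraries and 59.6 to 62.1 RPKM in OreR libraries. Of its genes nub (8.43 to 10.17 RPKM in hairpin and 10.47 to 11.3 RPKM in OreR libraries), pdm2 (3.03 to 3.65 and 3.86 to 4.79 RPKM) and dve (3.04 to 3.94 and 4.25 to 4.57 RPKM) were below OreR in all hairpin libraries and did not pass the pooled test (limma, adjusted p of 0.0541, 0.0535 and 0.0655). The larger members of the sum, vg (16.8 to 18.9 and 17.85 to 18.9 RPKM) and sd (21.1 to 24.5 and 21.6 to 24.65 RPKM), overlapped OreR. The part of the lower pouch markers in other results was not tested. In bulk RNA fewer cells of a type and less RNA per cell cannot be told apart.

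A hairpin RNA expressed under GAL4 control is cut by the nuclease Dicer-2 into short interfering RNAs, which guide cleavage of matching transcripts. Different hairpins against one gene are commonly used so that effects seen with both can be set apart from effects of one insertion. The wing pouch is the epithelium that forms the wing blade, grows under Wingless, Dpp and Hedgehog signals, and answers damage through the JNK stress kinase pathway.

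The hairpin libraries did not share a lower level of CR32027 (FBgn0052027, on chromosome arm 3L). Its level was 4.46, 3.34 and 2.93 RPKM in the libraries labelled CR32027-IR1 and 0.408, 1.12 and 1.19 RPKM in CR32027-IR2, against 2.38, 3.30 and 2.53 RPKM in OreR. The CR32027-IR2 libraries lay below all OreR libraries, and each library labelled CR32027-IR1 lay above at least 2 of the 3. The pooled log2 change was -0.35 ± 0.16 (SE; limma on log2(RPKM + 1), Benjamini-Hochberg adjusted p = 0.262; exact two-sided permutation p = 0.595 over 84 ways of choosing 3 of 9 libraries). The log2 difference between the hairpin genotypes was 1.28 (limma, adjusted p = 0.00214). A shared change is therefore a change shared by the 2 labels, and its relation to the level of CR32027 was not tested.

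In the pooled contrast 226 genes were called higher (3.04% of the 7437) and 252 lower (3.39%), 6.43% in all, at a limma adjusted p under 0.05. All 6 hairpin libraries lay above all OreR libraries in 260 genes (3.5%) and below them in 308 (4.14%), 7.64% in all. Separation and test together held for 131 genes higher (1.76%) and 145 lower (1.95%), 3.71% in all. Both criteria read the same values, so the second adds no independent evidence to the first. The 276 shared changes were 117 without OreR replicate 2 (91 genes called higher and 75 lower) and 180 without OreR replicate 1 (125 and 122). Among separated genes 129 above and 163 below OreR did not pass the test, and 95 genes called higher and 107 called lower were not separated. Nearest to the edge of separation, GM130, a Golgi matrix protein gene, lay just inside on the lower side and CG8858 just outside it, while the ID FBgn0264652 lay just inside on the upper side and ND-B17 just outside.

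Most shared changes were small. A log2 change of at least 1 was reached by 18 of the 276 genes, 7 higher and 11 lower, while 68 lay between 0.5 and 1 and 190 under 0.5. The median log2 change was 0.34 for the higher and -0.36 for the lower genes, against -0.0038 over all genes tested. Shared changes made up 4.75% of the 1389 genes with a mean of 1 to 5 RPKM and 3.77% of the 504 genes at 100 RPKM and over. Protein-coding genes were 255 of the 276, and 4 were snoRNA genes.

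The genotypes often differed in how far a shared change went. Between CR32027-IR1 and CR32027-IR2, 1625 genes were called (21.9% of those tested), 913 higher in CR32027-IR1 (12.3%) and 712 lower (9.57%). Of the 276 shared changes 104 were among them (37.7%). With each genotype set against OreR alone, 102 of the 131 higher genes passed in CR32027-IR1 (77.9%) and 84 in CR32027-IR2 (64.1%). For the 145 lower genes these counts were 133 in CR32027-IR1 (91.7%) and 67 in CR32027-IR2 (46.2%). Of the 57 higher genes that differed, 23 lay further from OreR in CR32027-IR1 and 34 in CR32027-IR2. Of the 47 lower genes that differed, 38 lay further from OreR in CR32027-IR1 and 9 in CR32027-IR2. A fit that treats the 6 hairpin libraries as one group, so that a difference between genotypes counts as spread, called 52 genes (0.699%), 21 higher and 31 lower, and all 52 were among the shared changes.

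**Figure D1:**
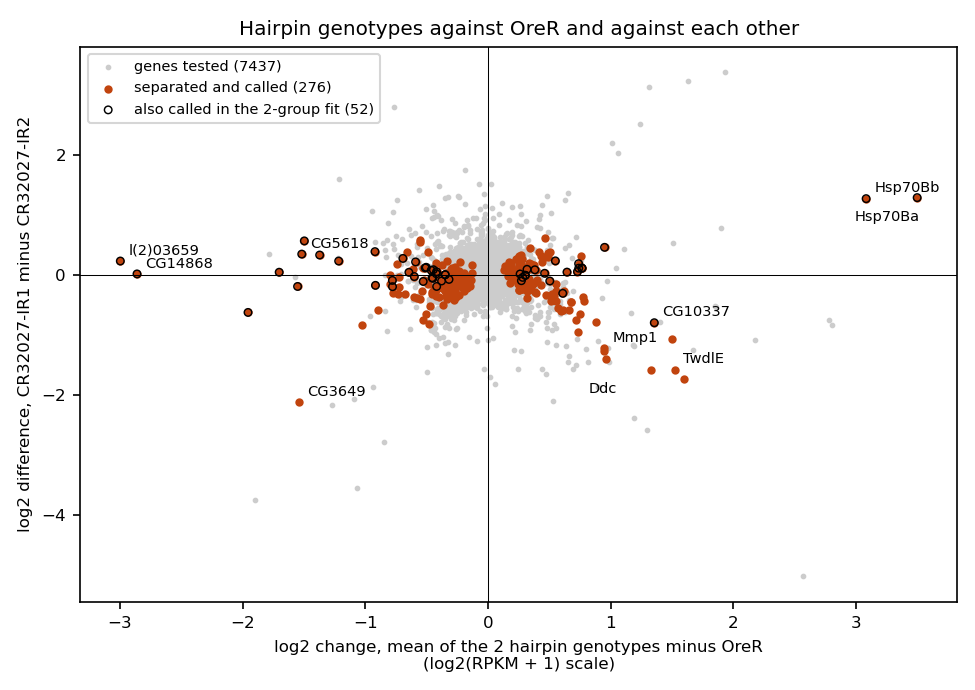
Each point is a gene, with the log2 change of the mean of both hairpin genotypes minus OreR on the x axis and the log2 difference CR32027-IR1 minus CR32027-IR2 on the y axis, both on the log2(RPKM + 1) scale. Red points are the 276 shared changes, and circles mark the 52 genes of the 2-group fit, which mostly lie near 0 on the y axis; Hsp70Ba and Hsp70Bb are far to the right and CG14868 is far to the left.

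The largest shared rises on the log2(RPKM + 1) scale were in 2 copies of the heat shock chaperone Hsp70. Hsp70Ba (chr3R:12465453-12467776, BDGP6, minus strand) was 78.4, 169 and 81.2 RPKM in CR32027-IR1 and 53.7, 34.3 and 38.5 RPKM in CR32027-IR2, against 3.61, 5.47 and 5.75 RPKM in OreR. Every hairpin library was several times above every OreR library, with CR32027-IR1 replicate 2 highest, and the pooled log2 change was 3.50 ± 0.25 (limma, adjusted p = 7.17e-05). Hsp70Bb (chr3R:12505793-12508139, BDGP6, plus strand) was 312, 431 and 312 RPKM in CR32027-IR1 and 163, 140 and 129 RPKM in CR32027-IR2, against 24.2, 27.4 and 24.8 RPKM in OreR. It had a log2 change of 3.08 ± 0.11 (limma, adjusted p = 7.34e-07), and both copies were higher in CR32027-IR1 than in CR32027-IR2. These copies are near-identical, so how reads were split between them is uncertain. UAS vectors carry a piece of the Hsp70Bb promoter, and the part of the transgene in these values was not tested. Of 21 heat shock genes tested 2 were called higher (background 3.04%) and 1 lower (3.39%), Hsc70-2, which was not separated. The log2 change was positive in 16 and negative in 5 of the 21, with a median of 0.59. All hairpin libraries lay above OreR in 4 of them (background 3.5%) and below in 0 (4.14%). Hsp68 was 28.2, 375 and 20.7 RPKM in CR32027-IR1 and 143, 110 and 141 RPKM in CR32027-IR2, against 10.2, 30.9 and 21.3 RPKM in OreR, and did not pass (limma, adjusted p = 0.15). CR32027-IR1 replicate 2 was the highest of these, and 7 heat shock genes were called higher without it, 6 without CR32027-IR1 replicate 3 and 4 without CR32027-IR1 replicate 1.

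Genes of the cuticle and its hardening were among the other large rises. TwdlE, a Tweedle family cuticle protein gene, was 8.73, 10.4 and 8.50 RPKM in CR32027-IR1 and 32.3, 27.7 and 28.3 RPKM in CR32027-IR2, against 6.37, 4.49 and 4.63 RPKM in OreR (log2 change 1.52 ± 0.11; limma, adjusted p = 5.73e-05). Ddc, dopa decarboxylase, which makes dopamine for cuticle tanning, was 0.662, 0.898 and 1.71 RPKM in CR32027-IR1 and 5.31, 5.58 and 4.58 RPKM in CR32027-IR2, against 0.319, 0.278 and 0.656 RPKM in OreR (1.33 ± 0.16; limma, adjusted p = 0.00179). In both genes the CR32027-IR1 libraries lay between those of OreR and CR32027-IR2, and for Ddc the lowest hairpin library and the highest OreR library nearly touched. Of 7 cuticle tanning and pigment genes 3 were called higher (Ddc, yellow-b and yellow-c; background 3.04%) and 0 lower, and in the 2-group fit 0 of them were called. The yellow-c call was lost in 7 of the 9 fits that leave out a library. Among 19 structural cuticle protein genes 3 were called higher (background 3.04%) and 1 lower (3.39%), and of these TwdlE rose and Cpr66D fell with separation. Cpr66D was 5.32 to 6.99 RPKM in hairpin libraries and 8.98 to 11.99 RPKM in OreR libraries (log2 change -0.65; limma, adjusted p = 0.00763).

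The remaining large rises included genes with no established name. CG10337 averaged 6.77 ± 2.36 RPKM in hairpin libraries and 1.94 ± 0.41 RPKM in OreR libraries (SD, n = 6 and 3), a log2 change of 1.36 (limma, adjusted p = 6.76e-05), and it also passed in the 2-group fit. CG5039 was 11.5, 11.5 and 12.4 RPKM in CR32027-IR1 and 8.05, 8.94 and 7.96 RPKM in CR32027-IR2, against 4.74, 3.46 and 6.05 RPKM in OreR, and passed there too. In contrast FBgn0031405, which had no symbol in the annotation used, CG10126 and CG6330 were at least 1.06 higher in CR32027-IR2 than in CR32027-IR1 on the log2 scale. As ratios of mean RPKM, which a pseudocount does not damp, FBgn0031405 was 14.9-fold and CG10126 13.8-fold higher in hairpin libraries, beside 15.35-fold for Hsp70Ba and 9.72-fold for Hsp70Bb. CG10126 had 1750 reads over the 6 hairpin libraries and 58 over the 3 OreR libraries. The small noncoding RNA FBgn0065094 was 17.3 to 44.7 RPKM in hairpin libraries and 14.9 to 16.8 RPKM in OreR libraries. This rise rests on few reads, 433 over the 6 hairpin libraries and 104 over the 3 OreR libraries, and its separation was narrow.

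**Figure D2:**
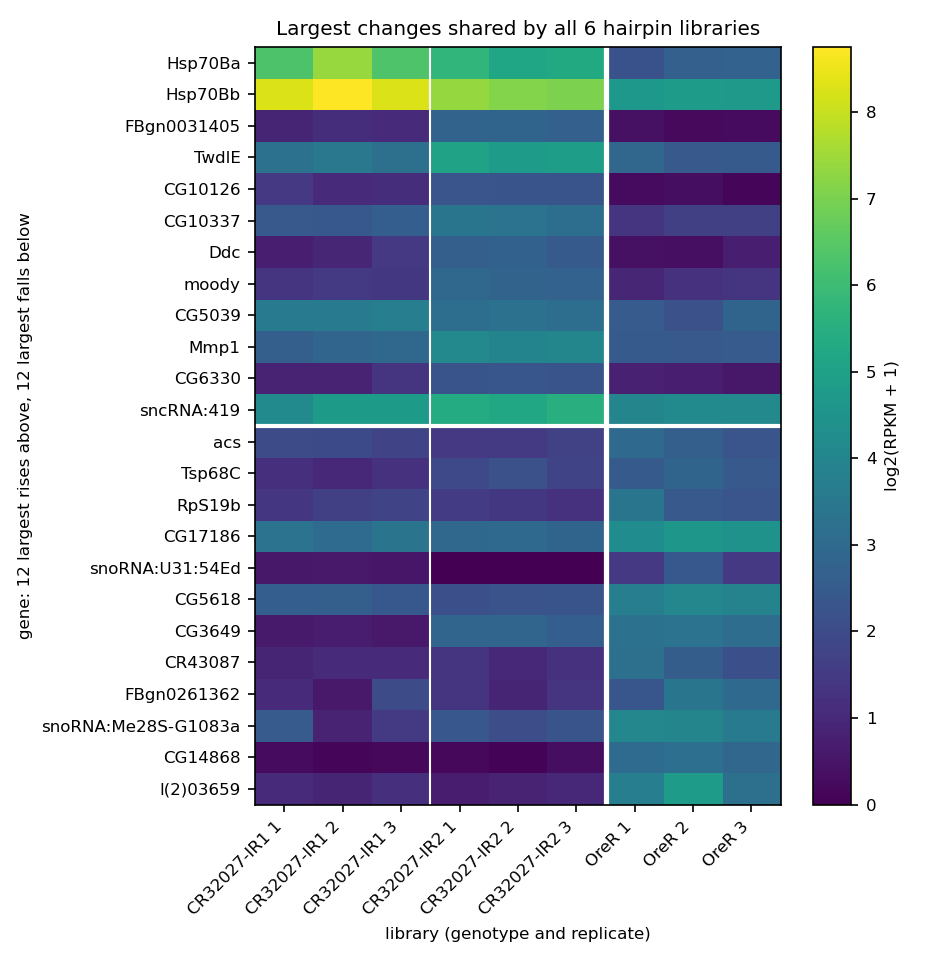
Log2(RPKM + 1) of the 12 largest shared rises (above the horizontal line) and the 12 largest shared falls (below it) in each library, with CR32027-IR1 and CR32027-IR2 left of the thick line and OreR right of it. Colour gives the level; Hsp70Bb is brightest in hairpin libraries (129 to 431 RPKM), and CG14868 is dark there (0.0635 to 0.243 RPKM).

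The largest falls were found in both hairpin genotypes, with no call between them. FBgn0010549 (chr2R:9390165-9395281, BDGP6), an ABC transporter gene plotted under its symbol, was 1.07, 0.879 and 1.34 RPKM in CR32027-IR1 and 0.616, 0.779 and 0.951 RPKM in CR32027-IR2, against 12.4, 27.5 and 8.48 RPKM in OreR. All hairpin libraries lay far below all OreR libraries, among which replicate 2 stood apart. The log2 change was -2.997 ± 0.28 (limma, adjusted p = 0.000418) and -2.55 without OreR replicate 2. CG14868 (chr3R:15367816-15369945, BDGP6) was 0.201, 0.125 and 0.144 RPKM in CR32027-IR1 and 0.129, 0.0635 and 0.243 RPKM in CR32027-IR2, against 7.44, 8.26 and 6.45 RPKM in OreR. It had 58 reads over the 6 hairpin libraries and 1356 over the 3 OreR libraries, and the hairpin mean was 2.04% of the OreR mean (log2 change -2.86 ± 0.09; limma, adjusted p = 4.17e-07). The log2 difference CR32027-IR1 minus CR32027-IR2 was 0.02 for CG14868 (95% interval -0.22 to 0.25; limma, adjusted p = 0.92) and 0.23 for FBgn0010549 (-0.50 to 0.96; 0.64).

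Other large falls were clear in every hairpin library. CG5618 was 3.37 to 5.26 RPKM in hairpin libraries and 12.3 to 15.7 RPKM in OreR libraries (log2 change -1.52; limma, adjusted p = 1.06e-05). CG17186 was 6.14 to 9.27 RPKM in hairpin libraries and 18.1 to 23.6 RPKM in OreR libraries (-1.37; limma, adjusted p = 5.73e-05). Both passed in the 2-group fit as well. The pseudogene CR43087 was 0.865 to 1.55 RPKM in hairpin libraries and 8.42, 4.92 and 3.45 RPKM in OreR (log2 change -1.55; limma, adjusted p = 0.00276). RpS19b, a paralog of the ribosomal protein gene RpS19a, was 1.39 to 2.49 RPKM in hairpin libraries and 9.61, 4.42 and 3.995 RPKM in OreR, with OreR replicate 1 above the others (-1.22; limma, adjusted p = 0.0117). It was the only one of 81 cytoplasmic ribosomal protein genes called (background 3.39% lower and 3.04% higher). CG3649 and the tetraspanin gene Tsp68C were lower in CR32027-IR1 than in CR32027-IR2, by 2.125 and 0.83 on the log2 scale.

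A few falls rest on few reads. snoRNA:Me28S-G1083a had 48 reads over the 6 hairpin libraries and 100 over the 3 OreR libraries. snoRNA:U31:54Ed had 3 reads over the hairpin libraries, all in CR32027-IR1, and 15 over OreR. Small nucleolar RNAs guide modification of ribosomal RNA and lack a poly(A) tail, and the libraries were made from poly(A) RNA, so these values describe what was caught.

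Most shared changes stood alone, and 1 run of neighbours was longer than a pair. Among the genes tested, shared changes stood as 230 single genes, 15 adjacent pairs and 1 run of 6 genes, the only run of at least 3. The run covers 20949 bases (chr3R:9684469-9705417, BDGP6), and all 6 genes were higher in both hairpin genotypes. It holds Unc-115a and Unc-115b, which encode LIM domain proteins that bind actin, eca and p24-2, cargo receptors of traffic between endoplasmic reticulum and Golgi, CG18542 and CG32939. Unc-115a was 26.6, 23.8 and 25.8 RPKM in CR32027-IR1 and 24.0, 23.1 and 23.1 RPKM in CR32027-IR2, against 14.4, 13.8 and 14.3 RPKM in OreR. Unc-115b was 68.8, 61.4 and 65.1 RPKM in CR32027-IR1 and 61.8, 59.8 and 58.7 RPKM in CR32027-IR2, against 39.0, 34.6 and 35.5 RPKM in OreR. In both genes the groups were far apart relative to the spread within them.

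The pooled log2 changes were 0.74 ± 0.04 for Unc-115a (limma, adjusted p = 2.18e-05), 0.77 ± 0.05 for Unc-115b (4.92e-05) and 0.77 ± 0.05 for p24-2 (4.51e-05). p24-2 overlaps Unc-115b on the same strand over most of its length, and their reads went in parallel in all libraries. They had 58568 and 66019 reads over the hairpin libraries and 16002 and 18047 over OreR. The values of p24-2 and Unc-115b are thus not independent, and the run of 6 counts both. p24-2 is also a related copy of eca, as Unc-115b is of Unc-115a, and how reads were assigned among such copies is uncertain. CG32939 changed by 0.55 (limma, adjusted p = 0.0027) and CG18542 by 0.43 (0.0154). The eca change was 0.20 (limma, adjusted p = 0.0438), a call lost in 7 of the 9 fits that leave out a library, with adjusted p of 0.042 to 0.176, and CG18542 lost its call without OreR replicate 2 (0.08). On the flanks p23 (log2 change 0.03; adjusted p = 0.812), nmdyn-D7 (0.01; 0.954), trbd (0.02; 0.863) and scaRNA:PsiU1-6 (-0.06; 0.935) did not pass.

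**Figure D3:**
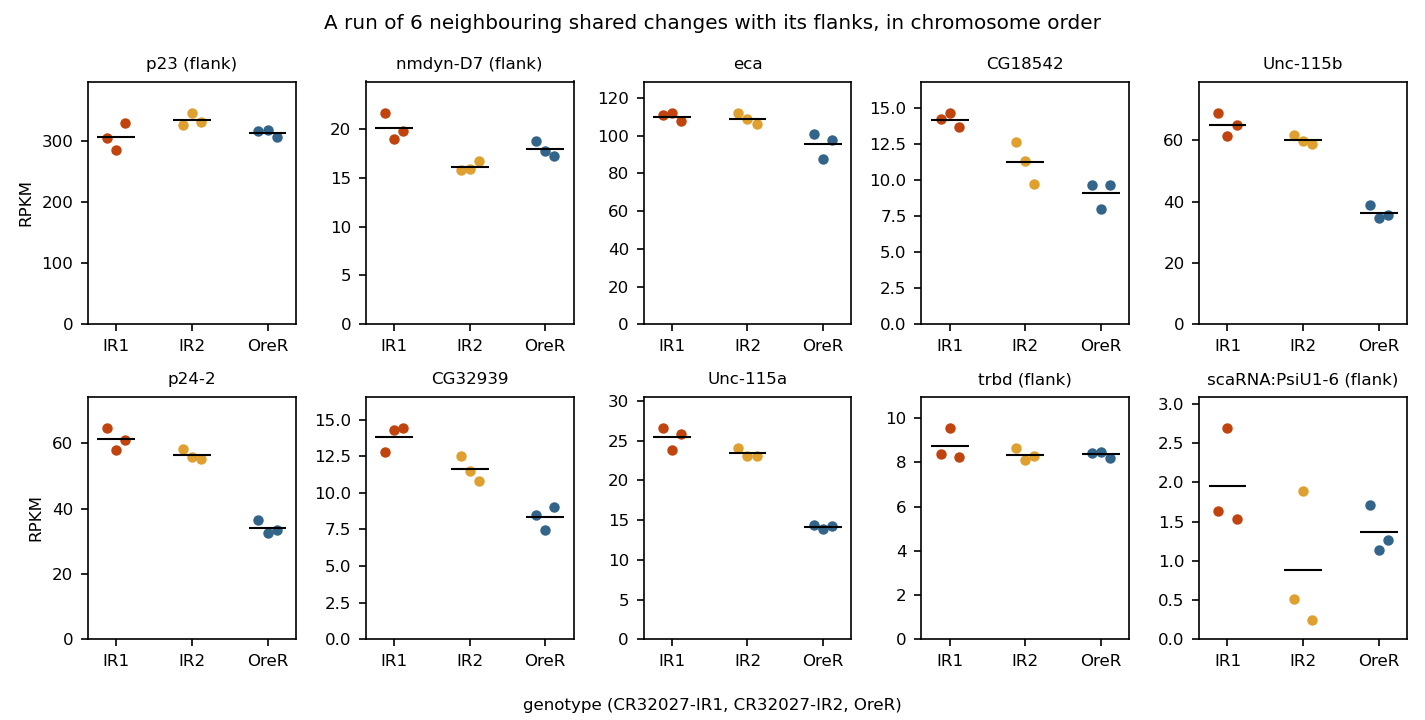
RPKM of 10 neighbouring genes on chromosome arm 3R in each library of CR32027-IR1, CR32027-IR2 and OreR, with bars at the mean of 3 libraries. The 6 genes between nmdyn-D7 and trbd are higher in all hairpin libraries, most of all Unc-115b, p24-2 and Unc-115a, while the hairpin and OreR libraries overlap in the 4 flanking genes.

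Of 18 JNK pathway and wound response genes tested, 7 were called higher (background 3.04%) and 0 lower (3.39%), and the other 11 did not pass. The log2 change was positive in 14 and negative in 4, with a median of 0.20. These lists were drawn up with earlier results of these data known, so their direction is not independent evidence. Mmp1, a matrix metalloproteinase that cuts basement membrane, was 5.24, 6.28 and 6.66 RPKM in CR32027-IR1 and 16.5, 14.5 and 15.2 RPKM in CR32027-IR2, against 4.52, 4.43 and 4.76 RPKM in OreR (log2 change 0.95 ± 0.07; limma, adjusted p = 9.56e-05). Every hairpin library exceeded every OreR library, but most of the change was in CR32027-IR2. The subunits of the transcription factor AP-1 also rose: Jra (Jun) was 40.9 to 53.4 RPKM in hairpin libraries and 33.6 to 38.8 RPKM in OreR libraries (0.38; limma, adjusted p = 0.00402), and kay (Fos) was 3.86 to 4.96 RPKM in hairpin libraries and 3.30 to 3.57 RPKM in OreR libraries (0.27; 0.0164). The remaining shared rises were upd1, a JAK-STAT ligand (0.40; limma, adjusted p = 0.0281), scaf, a secreted protease homologue (0.30; 0.0251), and Gadd45, a stress response gene named after its values were seen (0.56; 0.0339). The JNK phosphatase gene puc was called but not separated, with 2.10 to 4.21 RPKM in hairpin libraries and 1.78 to 2.48 RPKM in OreR libraries. The count of 7 was 2 without OreR replicate 2, 3 without OreR replicate 1, 4 without CR32027-IR2 replicate 3, 4 of the 14 genes left by a minimum mean of 5 RPKM, and 0 in the 2-group fit. The kay call was lost without OreR replicate 1 or 2, and the upd1 and scaf calls in 5 of the 9 fits without a library.

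Of 15 glycolysis and lactate genes tested, 6 were called lower (background 3.39%) and 2 higher (3.04%), with a median log2 change of -0.22. Aldolase (Ald1) was 32.7, 28.8 and 32.4 RPKM in CR32027-IR1 and 32.3, 34.2 and 35.0 RPKM in CR32027-IR2, against 47.2, 50.9 and 44.0 RPKM in OreR. Its log2 change was -0.58 in CR32027-IR1 and -0.47 in CR32027-IR2, or -0.53 ± 0.06 pooled (limma, adjusted p = 0.0014), and it was the one gene of the list called in the 2-group fit. Phosphofructokinase (Pfk), the committing step of glycolysis, was 11.2, 10.9 and 12.1 RPKM in CR32027-IR1 and 18.04, 18.6 and 18.4 RPKM in CR32027-IR2, against 21.4, 20.6 and 20.9 RPKM in OreR (-0.51; limma, adjusted p = 0.000206). Its CR32027-IR2 libraries lay only slightly below OreR. Pglym78, Gapdh2 and, named after its values were seen, Tpi fell with separation by 0.27 to 0.35 on the log2 scale. Enolase (Eno) was called lower without separation, at 65.7 to 122 RPKM in hairpin libraries and 115 to 121 RPKM in OreR libraries. The gluconeogenic gene fbp, named after its values were seen, was the separated rise (0.32; limma, adjusted p = 0.0324), and Ldh was called higher without separation. Without OreR replicate 2 the list had 2 genes called lower and 0 higher, and over all left-out libraries the calls higher numbered 0 to 2.

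The RNA interference machinery contained 2 genes called lower (background 3.39%) and 0 higher (3.04%) among 13 tested. Dcr-2, for which reads of the UAS-dicer2 transgene carried by all 3 genotypes may be counted, was 559, 433 and 417 RPKM in CR32027-IR1 and 501, 511 and 594 RPKM in CR32027-IR2, against 919, 902 and 756 RPKM in OreR. It fell to 58.5% of the OreR mean (log2 change -0.78 ± 0.11; limma, adjusted p = 0.00402), with no overlap between hairpin and OreR libraries. loqs, a double-stranded RNA binding partner of Dicer enzymes, was 14.5 to 19.6 RPKM in hairpin libraries and 21.5 to 22.2 RPKM in OreR libraries (-0.36; limma, adjusted p = 0.0154), a call lost without OreR replicate 1 or 2. The transgene marker gene w and the zinc finger gene tio, in contrast, did not pass in the pooled contrast (log2 change 0.09, adjusted p = 0.329, and -0.29, adjusted p = 0.177), and the means of the hairpin genotypes lay on opposite sides of OreR in both.

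Signalling lists held few calls each, and 6.43% of all genes tested were called in either direction. In the Hedgehog list 3 of 18 genes were called lower (background 3.39%) and 1 higher (3.04%): smo, the signal transducer (log2 change -0.21; limma, adjusted p = 0.0168), and botv, a heparan sulfate polymerase (-0.27; 0.0118), fell with separation, disp was called without it, and dally, a heparan sulfate proteoglycan, rose (0.34; 0.0209). The smo call was lost without OreR replicate 2 or 3, the botv call without OreR replicate 1, and the dally call without any of 5 libraries. wls, which carries Wingless to the cell surface, was the 1 of 22 Wingless genes called (background 3.39% lower and 3.04% higher). It was 44.5, 44.5 and 43.4 RPKM in CR32027-IR1 and 58.6, 58.7 and 60.99 RPKM in CR32027-IR2, against 61.3, 62.9 and 63.0 RPKM in OreR (-0.28; limma, adjusted p = 0.00204). Its separation in CR32027-IR2 was narrow. Sdr, a secreted decoy of the insulin receptor, had log2 changes of -0.61 in CR32027-IR1 and -0.59 in CR32027-IR2, at 5.69 to 7.65 RPKM in hairpin libraries and 10.3 to 11.6 RPKM in OreR libraries (-0.60; limma, adjusted p = 0.00364). Of the Notch (16 genes), EGF receptor (17), Hippo and Fat (19) and proneural (18) lists, 0 genes were called in each, and of 17 wing pouch transcription factors only Doc1 was called (lower, -0.36; limma, adjusted p = 0.0438; lost in 6 of the 9 fits without a library). In lists of this size 0 or 1 call is near the share of all genes called, 6.43%. By separation alone, however, 4 of the 17 wing pouch transcription factors were below OreR in all hairpin libraries (background 4.14%) and 0 above (3.5%). Over these 17 genes the log2 change was negative in 12 and positive in 5.

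In the dosage compensation list 3 of 14 genes were called lower (background 3.39%) and 0 higher. The noncoding RNAs roX1 and roX2, which bring the compensation complex to the male X chromosome, were 257 to 304 and 24.3 to 35.1 RPKM in hairpin libraries and 309 to 331 and 39.1 to 42.7 RPKM in OreR libraries. Their log2 changes were -0.19 for lncRNA:roX1 (limma, adjusted p = 0.0269) and -0.42 for lncRNA:roX2 (0.0276). The calls were lost in 5 (lncRNA:roX1) and 6 (lncRNA:roX2) of the 9 fits without a library. These include each fit without an OreR replicate and some without a hairpin library. msl-2 was called lower without separation.

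Septate junction genes, which seal epithelia and glia, had 3 of 20 called higher (background 3.04%) and 0 lower. nrv2, a sodium pump subunit, was 30.9 to 38.0 RPKM in hairpin libraries and 25.3 to 27.6 RPKM in OreR libraries (log2 change 0.35; limma, adjusted p = 0.00483). The receptor gene moody was 1.55, 1.83 and 1.70 RPKM in CR32027-IR1 and 6.80, 5.97 and 5.67 RPKM in CR32027-IR2, against 0.924, 1.38 and 1.499 RPKM in OreR (0.96; limma, adjusted p = 0.000625), with CR32027-IR1 close to OreR. In the 2-group fit 0 of the 20 were called. Both are also used as glial markers and make up nearly all of the sum of 4 glial markers, 36.0 to 40.4 RPKM in hairpin libraries and 26.3 to 29.2 RPKM in OreR libraries, which thus restates them. The glial gene Gs2 was at 0.0709 to 0.185 RPKM in hairpin libraries and 0.0375 to 0.119 RPKM in OreR libraries, and the defining glial gene repo was at 0 to 0.0234 RPKM in hairpin libraries and 0 to 0.0256 RPKM in OreR libraries.

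Markers of other tissues gave mixed values. The tracheal list had serp, a chitin deacetylase, higher (log2 change 0.72; limma, adjusted p = 0.00474) and the transcription factor trh lower (-0.36; 0.0136) among 6 genes (background 3.04% and 3.39%). The sum of 4 tracheal markers, mostly vvl and verm, was 218 to 330 RPKM in hairpin libraries and 202 to 267 RPKM in OreR libraries. For 7 notum markers the sum was 23.8 to 29.6 RPKM in hairpin libraries and 22.8 to 25.5 RPKM in OreR libraries. The hemocyte receptor gene crq was lower (-0.24; limma, adjusted p = 0.00988), while the sum of 6 hemocyte markers was 36.2 to 58.2 RPKM in hairpin libraries and 42.5 to 46.5 RPKM in OreR libraries. That sum mostly restates Ppn, at 31.7 to 57.7 RPKM in hairpin libraries and 38.4 to 43 RPKM in OreR libraries. The markers Hml, NimC1, Pxn, eater and srp were each lowest in CR32027-IR1 replicate 2, where Ppn was highest. The muscle gene sls was lower (-0.34; 0.0108), with a muscle marker sum of 9.42 to 14.6 RPKM in hairpin libraries and 9.16 to 11.1 RPKM in OreR libraries. The 4 fat body markers summed to 0.115 to 1.74 RPKM in hairpin libraries, highest in replicate 3 of each genotype, and to 0.0739 to 0.175 RPKM in OreR libraries. The trh call was lost without OreR replicate 1 or 2, the crq call without OreR replicate 1 and the sls call without OreR replicate 2. The part of such cells in the gene changes above was not tested.

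**Figure D4:**
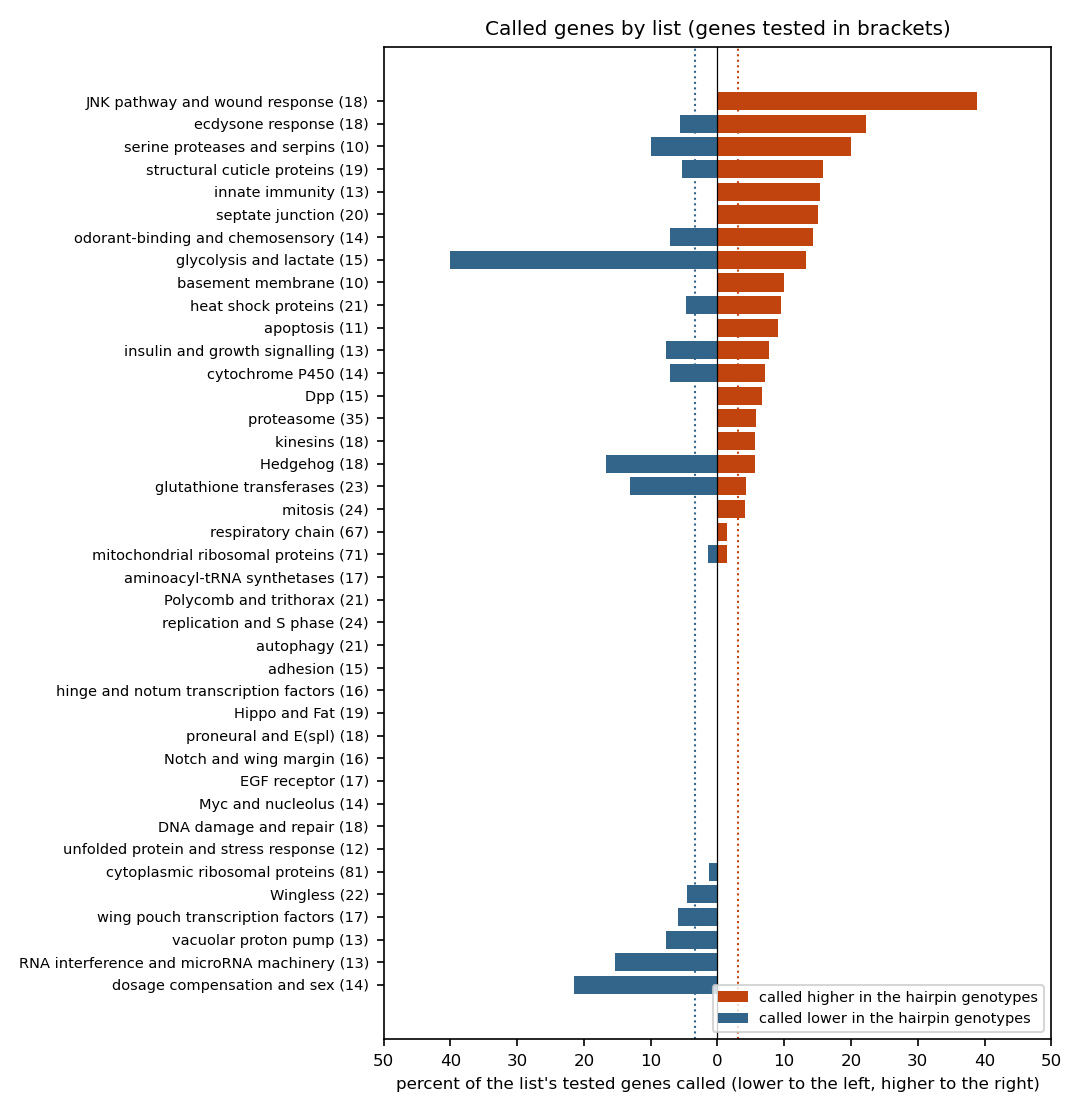
Percent of each list's tested genes called higher (right) or lower (left) in the pooled contrast, for lists with at least 10 genes tested, given in brackets; dotted lines mark 3.04% and 3.39%, the shares of all genes. The JNK and wound list reaches furthest to the right (7 of 18 genes) and the glycolysis list furthest to the left (6 of 15). Several signalling lists and the replication and S phase list have 0 calls.

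Single genes of the other lists that changed were borr, a subunit of the chromosomal passenger complex (log2 change 0.46; limma, adjusted p = 0.012), Spn88Ea, a serine protease inhibitor (0.32; 0.00303), and the lower genes Spn47C, another such inhibitor (-0.59; 0.000324), and Cth, cystathionine gamma-lyase (-0.42; 0.0031). All 4 passed in the 2-group fit. The kinesin-1 heavy chain gene Khc was 43.4 to 54.5 RPKM in hairpin libraries and 39.8 to 43.1 RPKM in OreR libraries (0.29; 0.0108). Its light chain gene Klc, named after its values were seen, was 42.3 to 46.6 RPKM in hairpin libraries and 36.0 to 38.8 RPKM in OreR libraries (0.26; limma, adjusted p = 0.012). The Khc call was lost without OreR replicate 1 or 2, and the borr call without OreR replicate 1 or 3. Among 23 glutathione transferases 3 were called lower (background 3.39%) and 1 higher (3.04%); GstT3 (-0.46) and GstS1 (-0.13) fell with separation, and lost their calls in 5 and 8 of the 9 fits without a library. The caspase gene Dcp-1 (0.13) and the Toll pathway kinase gene pll (0.23) were the separated rises of their lists; the first lost its call in 8 of those fits and the second without OreR replicate 2.

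Shared changes were spread over the autosomes and were fewer on the X chromosome. All males took their X chromosome from the common driver stock, while an autosome of each pair came from the father's stock. Of 1208 X-linked genes tested 33 were shared changes (2.73%), against 233 of 5854 autosomal genes (3.98%). With a log2 change of at least 0.5 there were 2 on the X chromosome (0.166%), moody and CG9689, which was named after its values were seen, and 81 on the autosomes (1.38%). Leaving out each library gave 0.166% to 0.497% on the X chromosome and 0.974% to 1.69% on the autosomes. The 33 X-linked genes were 8 without OreR replicate 2, 18 without OreR replicate 1 and 50 without CR32027-IR1 replicate 3. The difference between the arms was not tested, since genes are not independent replicates. The part of the father's stock in that difference was not tested either. Between the hairpin genotypes 17.7% of X-linked and 22.8% of autosomal genes were called.

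**Figure D5:**
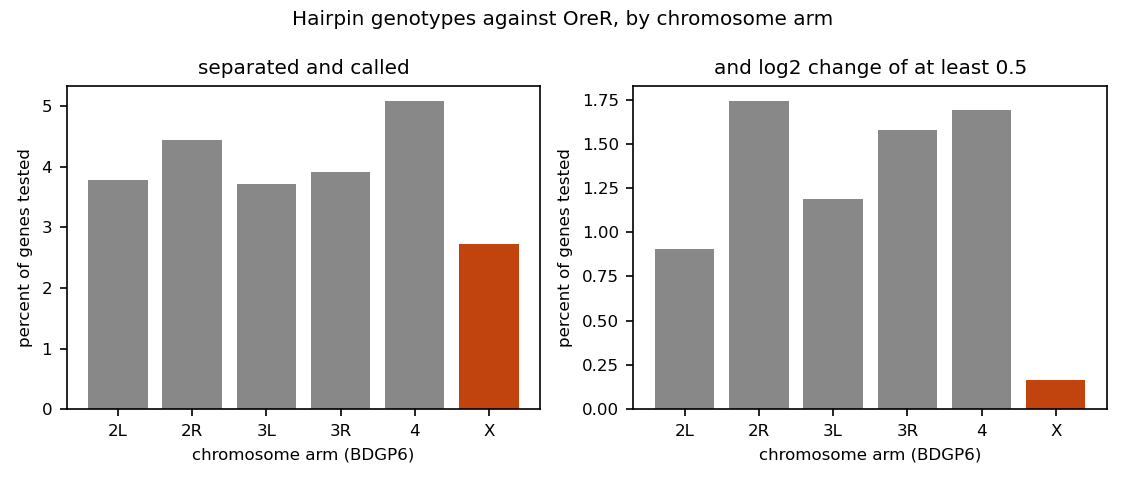
Percent of the genes tested on each chromosome arm that were shared changes (left) and shared changes with a log2 change of at least 0.5 (right); arm names are those of BDGP6. The X chromosome, in red, has 2.73% and 0.166%, below each autosomal arm; chromosome 4 rests on 59 genes.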

How the data were processed

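Stranded mRNA libraries were made from 100 ng of total RNA, per the labels' protocols. Per the submitters' processing notes, tools included TopHat2 and CASAVA 1.8.2, and the build was dm3. The counter, strand setting and gene models were not given in the sources used here. As deposited, the authors' table holds RPKM values for 15682 genes, of which 3246 were at 0 in all 9 libraries. Low values were whole multiples of 1 read when gene length was taken as the whole genomic span, introns included. This gave depths of 25070343 to 36512316 reads. With these depths, 7436 of 7437 genes tested had reads whole within 0.01 read. RPKM on this length is lower for genes with long introns than over exons alone, which bears on the filter of 1 RPKM. Symbols and positions came from BDGP6 by gene identifier (7094 of 7437 genes matched) and none were converted. Where gene rows shared identical values (6 shared changes), reads could not be split.

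Values were taken as log2(RPKM + 1), which understates changes of low genes. A limma-trend fit (limma 3.58.1, R 4.3.3) was made to 7437 genes with 3 genotype means (6 residual degrees of freedom). The pooled contrast is the mean of both hairpin genotypes minus OreR, and Benjamini-Hochberg adjustment ran over all genes, with calls at an adjusted p under 0.05. Errors on log2 changes are SE. Levels are mean ± SD. The fit was tested on simulated data. Alternatives were the pseudocount, filter, scaling, trend, array weights, a 2-group fit, a replicate block and leaving out each library; limma voom on the recovered reads was added after the data were seen. Depth limits precision, and low genes rest on the reads given.

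Named genes were CR32027, w, Dcr-2 and tio; the 12 largest shared rises and falls; up to 4 shared changes with the smallest p in each of 49 gene lists; the 5 largest differences each way between hairpin genotypes; the genes of runs of at least 3 neighbours; genes at 0 in one group only; and the genes nearest each threshold. Hsp68, puc, Eno, Ldh, Hsc70-2, disp, msl-2, the genes flanking the run, wing pouch and hemocyte markers, the tracheal markers vvl and verm, the glial markers repo and Gs2, and all genes of the closing lists were picked outside this rule, with values known. The members, lists and tests were chosen with earlier results of these data known. Promoter and protein sequences were not used here. Python 3.11.15, pandas 2.3.3, numpy 2.4.6, scipy 1.17.1 and matplotlib 3.10.9 were used.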

Additional observations from a re-analysis of the deposited data

Results flagged for a closer look

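Among 6 hairpin libraries, the highest value stood apart from the rest for Hsp70Ba (169 RPKM, CR32027-IR1 replicate 2) and for scaf (9.29 RPKM, CR32027-IR2 replicate 3). A gap of this kind arises by chance in about 1 in 20 groups of 6 values drawn from a single population. These libraries come from 2 genotypes, so that rate need not hold here. The 75 named genes were all looked at in this way.

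The tests of CR32027-IR1 against CR32027-IR2 (limma, adjusted p under 0.05) set these named genes apart between the hairpin genotypes; all values are log2 differences, CR32027-IR1 minus CR32027-IR2. Higher in CR32027-IR1 among genes higher than OreR were Hsp70Ba (1.29), Hsp70Bb (1.27), CG5731 (0.62), CG5039 (0.46), CG18542 (0.32) and pll (0.26). Lower in CR32027-IR1 among them were FBgn0031405 (-1.74), Ddc (-1.59), TwdlE (-1.58), moody (-1.41), CG6330 (-1.27), Mmp1 (-1.22), CG10126 (-1.06), CG10337 (-0.80), FBgn0065094 (-0.79), serp (-0.75), Jra (-0.29), kay (-0.21) and Khc (-0.19). The Hsp70 copies were further from OreR in CR32027-IR1, and TwdlE, Ddc and Mmp1 in CR32027-IR2.

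Among genes lower than OreR, those still lower in CR32027-IR1 were CG3649 (-2.12), Tsp68C (-0.83), GM130 (-0.82), Pfk (-0.64), wls (-0.42), sls (-0.35), crq (-0.33), botv (-0.24), Pglym78 (-0.23), smo (-0.20), Gapdh2 (-0.17) and lncRNA:roX1 (-0.17). Those lower in CR32027-IR2 were grass (0.58), pinta (0.54), CG5618 (0.35), Spn47C (0.22) and GstS1 (0.17). Genes not called in the pooled contrast differed as well: lncRNA:CR32027 by 1.28, tio by 0.93 and w by -0.51.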

How the results depend on the processing

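Direction reversed for 0 of the 69 called named genes under the alternatives run (48 of them could be tested with the minimum of 5 RPKM). The fit that counts the genotype difference as spread gave 21 genes higher and 31 lower in place of 226 and 252, and 43 of 69 called named genes lost their calls. Leaving out each library gave 91 to 277 genes higher, 75 to 354 lower, 280 to 505 with all hairpin libraries above OreR, 356 to 542 below, and 63 to 136 shared changes that differ between hairpin genotypes in place of 104. Counts of calls higher moved by over 1.5 times without CR32027-IR1 replicate 1 (148), CR32027-IR2 replicate 2 (137), OreR replicate 1 (125) or OreR replicate 2 (91). Counts lower did so without CR32027-IR2 replicate 2 (154) or 3 (161) or OreR replicate 1 (122), 2 (75) or 3 (159), and the count that differ without CR32027-IR1 replicate 1 (68) or OreR replicate 2 (63). Separation counts rose with fewer libraries to compare, most without OreR replicate 1 (411 above, 524 below) or 3 (505 and 542). Shared changes numbered 117 to 399 over the left-out libraries in place of 276. Calls of 43 of 69 named genes were kept without every library and 26 were lost without at least 1. Array weights left 63 shared changes that differ, and no filter on low values gave 467 genes below OreR. The causes were not tested.

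The pooled log2 change of CR32027 was -0.42 to -0.25 over the left-out libraries, -0.46 at a pseudocount of 0.5 RPKM and with array weights, -0.62 at 0.1 RPKM and -0.70 with limma voom, beside -0.35, and did not pass in any alternative run; at a mean of at least 5 RPKM it was not tested. The count that differ could not be given for the 2-group fit, which has no genotype term. Over all genes tested, replicate numbers showed no pairing of the libraries. Same-numbered deviations correlated at -0.107, -0.125 and -0.002 between the hairpin genotypes and at -0.237 to 0.116 between hairpin and OreR libraries. Different-numbered ones correlated at -0.188 to 0.267. Single genes can still go by number, as the fat body markers were highest in replicate 3 of each hairpin genotype. The replicate block gave 135 genes higher, 140 lower, 180 shared changes and 64 shared changes that differ.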

Other observations

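Of the ESCRT machinery, which sorts membrane proteins into the interior of endosomes, 7 of 19 genes were called higher (background 3.04%) and 0 lower, with a median log2 change of 0.19. This list and the lists named below in this section were drawn up after the values were seen, so their counts are descriptions only. CHMP2B was 16.8, 16.6 and 19.5 RPKM in CR32027-IR1 and 22.3, 22.6 and 22.0 RPKM in CR32027-IR2, against 13.6, 12.02 and 14.9 RPKM in OreR (log2 change 0.52; limma, adjusted p = 0.00398). Vps2 was 59.7 to 68.5 RPKM in hairpin libraries and 52.5 to 53.3 RPKM in OreR libraries (0.27; limma, adjusted p = 0.0042), and was the one gene of the list called in the 2-group fit. Ist1, Vps60, Vps20 and Vps28 were also separated, with log2 changes of 0.22 to 0.28, and ALiX was called without separation. The count of 7 was 3 without OreR replicate 1 and 4 without OreR replicate 2, CR32027-IR1 replicate 1, CR32027-IR2 replicate 1 or CR32027-IR2 replicate 2.

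Of 5 glycogen metabolism genes 3 were called lower and 0 higher (background 3.39%). Glycogen phosphorylase (Glyp), which releases sugar from glycogen, was 17.5, 14.2 and 20.4 RPKM in CR32027-IR1 and 21.4, 23.1 and 24.6 RPKM in CR32027-IR2, against 28.8, 29.9 and 30.6 RPKM in OreR (log2 change -0.56; limma, adjusted p = 0.00965). Phosphoglucomutase (Pgm1) had a log2 change of -0.32 and the branching enzyme gene AGBE of -0.23. The count was 1 without CR32027-IR2 replicate 2 or OreR replicate 1, and 0 without OreR replicate 2 and in the 2-group fit. Among 15 genes that control TORC1 at the lysosome, 3 were called lower (background 3.39%) and 0 higher: RagA-B (-0.30), Lamtor3 (-0.27) and Wdr59 (-0.25). In the 2-group fit 0 of them were called, and without OreR replicate 2 or 3 the count was 1.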
